A study of Mus musculus with 4 samples.

Results

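The mouse lipocalin, secretoglobin, androgen-binding protein, odorant-binding protein and major urinary protein genes were followed across 4 prostate arrays. They were taken by name, as every non-control probe whose gene name in the scanner files began with Lcn and a digit, Scgb and a digit, Abp and a letter, Obp, or Mup and a digit. The rule found 28 of 41174 probes and 25 of 27974 genes. The rule uses names and no measured value.

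The study crossed 2 mouse lines with 2 gavages. TRAMP mice are a prostate cancer model that carries the early genes of the virus SV40, switched on in prostate epithelium by the promoter of rat probasin, and C57BL/6 mice of the same age were the controls. The 4 groups were TRAMP mice given 600 mg/kg of γ-TmT, a tocopherol mixture rich in gamma-tocopherol, TRAMP mice given olive oil, C57BL/6 mice given 600 mg/kg of γ-TmT (TmT from here on), and C57BL/6 mice given olive oil. All were 8 weeks old, ate the same purified diet (AIN-76A), had been kept without food overnight, and had their prostates removed 12 hours after the gavage. Each group had 3 mice and 1 array, and whether 1 mouse or a pool supplied its RNA is not in the labels. The background strain of the TRAMP mice is not in the labels, so the transgene and the rest of the genome cannot be told apart in any difference between the lines. Prostate luminal markers were present as labelled: all 7 on the list, among them Krt8 and Tgm4, were well above background on all 4 arrays. So were all 7 genes on a list of seminal vesicle markers, and the part of that tissue in the results was not tested.

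Lipocalins are small secreted barrel-shaped proteins that carry hydrophobic ligands such as lipids, steroids, odorants and iron chelators. Major urinary and odorant-binding proteins are lipocalins that bind volatile signals in rodents. Secretoglobins are small secreted dimeric proteins of mucosal and glandular fluids, and the mouse androgen-binding proteins are secretoglobins in which an alpha subunit (the Scgb1b genes) pairs with a beta or gamma subunit (the Scgb2b genes). Probasin, whose promoter drives the TRAMP transgene, is itself a prostate lipocalin regulated by androgens.

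Values are log2 intensities relative to the 75th percentile of each array, so 0 is the brightness of a fairly bright probe, and they serve to compare arrays for 1 probe and not probes with each other. Between 63.9% and 74.1% of spots were well above background, no spot was saturated, and the 75th percentiles were 71.3 on the TRAMP TmT array, 139 on the TRAMP oil array, 118 on the C57BL/6 TmT array and 161 on the C57BL/6 oil array. The TRAMP TmT array was the dimmest, and the only one whose header records no fitted multiplicative detrending (a fit of 0, against 0.0662 to 0.23 on the other arrays). A difference between 2 arrays is printed with ± the spot error given by the scanner software, which does not cover differences between mice. With 1 array per group no such difference has a replicate check, and none has a p-value. A gene seen on only 1 of 2 arrays is given as a bound, at least N-fold, in which the dim side is set at the probe's own value or, if higher, at the faintest signal counted as above background there. All are bulk tissue values, in which fewer cells of a type and less RNA per cell cannot be told apart.

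Of the 25 genes, 13 were above background on all 4 arrays, and 4 more on some of them. The remaining 8 were never above background: the androgen-binding protein subunits Scgb2b2 and Scgb2b26 (Abpe and Abpg in the files), the epididymal lipocalins Lcn5, Lcn8 and Lcn12, the vomeronasal lipocalins Lcn3 and Lcn4, and Obp1a, an odorant-binding protein of nasal glands. The files use older names for several members, and the RefSeq symbols used here are Scgb1b27 for Abpa, Scgb2b27 for Abpb, Scgb2b20 for Abpd, Scgb2b24 for Abpz and Obp2a for Lcn13.

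**Figure D1:**
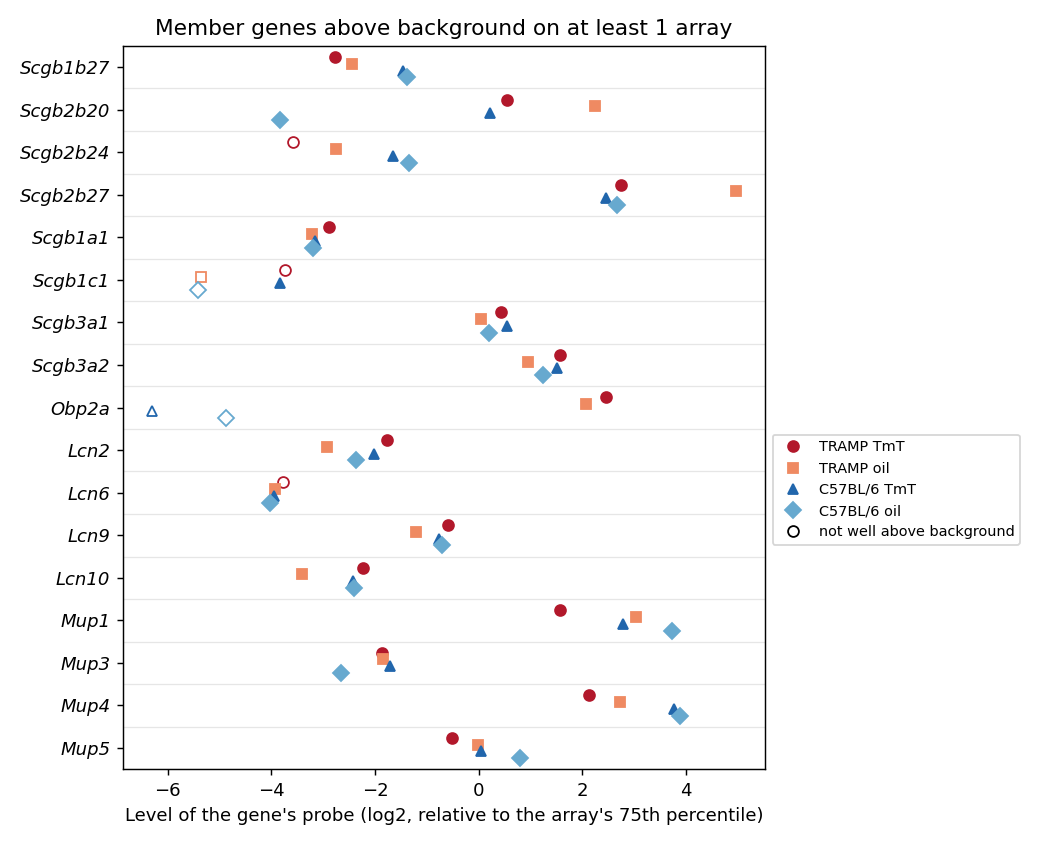
Level of each member gene above background on at least 1 array (log2, relative to the array's 75th percentile), with 1 point per array and hollow points where the probe was not well above background. Levels are comparable within a row only; the Obp2a points of the TRAMP arrays lie at 2.45 and 2.08, and the Scgb2b20 point of the C57BL/6 oil array at -3.84 lies far left of the other 3.

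The probes behind the differences described next are printed 5′ to 3′ to show which transcript each reads, with mm9 positions from the scanner files. Probes of the androgen-binding protein cluster lay on chromosome 7, from chr7:34149502-34149561 (minus strand) for Scgb2b20 over chr7:34797063-34797122 and chr7:34797181-34798233 (both minus) for the brighter and the dimmer Scgb2b27 probe to chr7:34806627-34806807 (plus) for Scgb1b27. The Obp2a probe lay at chr2:25557764-25558683 on the plus strand. Each probe is 60 bases long, and 14 of the 27 member probes with a position spanned more than 60 bp of the genome, as probes across an exon junction do. Which exon or untranslated region lies under a probe was not looked up.
Scgb2b20: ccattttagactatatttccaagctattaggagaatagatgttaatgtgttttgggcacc
Scgb2b27, brighter probe: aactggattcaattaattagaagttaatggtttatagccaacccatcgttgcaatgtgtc
Scgb2b27, dimmer probe: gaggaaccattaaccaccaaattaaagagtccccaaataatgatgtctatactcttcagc
Scgb1b27: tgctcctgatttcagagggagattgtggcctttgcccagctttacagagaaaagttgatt
Obp2a: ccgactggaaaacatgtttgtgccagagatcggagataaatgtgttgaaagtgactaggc

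The first question was how the prostates of the 2 lines differed. Obp2a, an odorant-binding lipocalin, was present in TRAMP and not above background in C57BL/6. Its level was 2.45 in TRAMP after TmT and 2.08 in TRAMP after oil, against -6.31 and -4.88, both not well above background, in C57BL/6 after TmT and after oil. Both TRAMP arrays were thus high and both C57BL/6 arrays low. The bounds were at least 130-fold higher in TRAMP after TmT and at least 121-fold higher in TRAMP after oil.

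Obp2a was also the only member called in a fit of all 4 arrays. The fit (limma, additive in line and gavage, Benjamini-Hochberg adjustment over 19925 genes above background on at least 2 arrays, threshold 0.05) sets the 2 TRAMP arrays against the 2 C57BL/6 arrays and uses the interaction as its 1 residual degree of freedom. In it Obp2a rose in TRAMP (limma adjusted p = 0.04882), with a bound of at least 125-fold. It entered the fit only through the 2 TRAMP arrays on which it was bright, and its C57BL/6 values lie below background, so the fitted p rests on values with no measured level and adds little to the bounds. Of the 16 members tested 1 rose and 0 fell, against 0.1% of all genes that rose and 0.0351% that fell. Another 5 members had an unadjusted p under 0.05 without passing, 6 of 16 with Obp2a, beside 3008 of all 19925 genes (15.1%). The call sat at the threshold: the adjusted p was 0.06983 with the mean over all probes of each gene, and 0.01387 with no background filter. Over all alternatives it ran between 4.078e-34 and 0.823, both ends coming from normexp, a model-based background correction that keeps every signal above 0, with and without the spots marked as background outliers.

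None of the measured genes around Obp2a was at least 2-fold higher with it. Within 200 kb of its probe on chromosome 2, where the epididymal lipocalins also lie, 15 of 22 genes were measured on both oil arrays, with 0 at least 2-fold higher and 1, Lcn10, at least 2-fold lower in TRAMP. On the TmT arrays 13 were measured, with 0 at least 2-fold higher or lower.

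Obp2a is also known from liver, so liver markers were read beside it. Of the 6 liver markers on the arrays, Alb, Ttr and Fgb were not above background on any array. Ahsg, the liver-made fetuin, was above background on the TRAMP arrays only, with bounds of at least 5.73-fold higher in TRAMP after TmT and at least 5.85-fold higher after oil. Like Obp2a it entered the limma fit through the TRAMP arrays alone (adjusted p = 0.04882). Apoa1 and Cyp3a11 did not share this: after oil they differed by -0.26 ± 0.10 and -0.30 ± 0.33, and after TmT both were above background in C57BL/6 only. The summed level of the 6, on a linear scale where 1 is the array's 75th percentile, was 0.491 in TRAMP after TmT, 0.402 in TRAMP after oil, 0.216 in C57BL/6 after TmT and 0.21 in C57BL/6 after oil. The part of these markers' tissue in the Obp2a difference was not tested.

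The androgen-binding protein genes differed among themselves. Scgb2b20, a beta or gamma subunit, had levels of 0.55 in TRAMP after TmT, 2.24 in TRAMP after oil, 0.21 in C57BL/6 after TmT and -3.84 in C57BL/6 after oil. It was above background on all 4 arrays, with the C57BL/6 oil array far below the rest. After TmT the lines differed by 0.33 ± 0.21, and after oil by 6.09 ± 0.26, a 67.9-fold higher level in TRAMP. That last difference ranked 1st of 18921 genes measured on both oil arrays. With normexp background correction, with or without background-outlier spots, it was 2.84. That correction adds 50 to every signal, which shrinks differences of dim probes. In the limma fit the line difference of Scgb2b20 was 3.21 ± 1.27 (SE) with an adjusted p of 0.3278, since the fit takes the disagreement between gavages as error.

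Scgb2b27, the beta subunit partnered with Scgb1b27 in saliva, had levels of 2.76 in TRAMP after TmT, 4.97 in TRAMP after oil, 2.46 in C57BL/6 after TmT and 2.67 in C57BL/6 after oil. The TRAMP oil array alone stood high. The lines differed by 0.30 ± 0.20 after TmT and by 2.31 ± 0.20 after oil. The dimmer probe had 1.54 in TRAMP after TmT, 3.64 in TRAMP after oil, 1.07 in C57BL/6 after TmT and 1.59 in C57BL/6 after oil, with the TRAMP oil array again the highest.

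The alpha subunit and a further beta or gamma subunit went the other way. Scgb1b27, the alpha subunit, had levels of -2.78 in TRAMP after TmT and -2.44 in TRAMP after oil, against -1.46 in C57BL/6 after TmT and -1.39 in C57BL/6 after oil. The line difference was -1.32 ± 0.27 after TmT and -1.05 ± 0.22 after oil. Scgb2b24 had -3.58 (not well above background) in TRAMP after TmT and -2.75 in TRAMP after oil, against -1.65 in C57BL/6 after TmT and -1.34 in C57BL/6 after oil. It was at least 3.68-fold lower in TRAMP after TmT and lower by -1.41 ± 0.23 after oil. Neither passed in the limma fit, with adjusted p of 0.2097 for Scgb1b27 and 0.1321 for Scgb2b24. With normexp correction Scgb1b27 differed by 0.0313 after TmT and -0.30 after oil (-0.07 and -0.31 without background-outlier spots). Scgb2b24 differed by -0.45 after oil (-0.46 without them). The processed signals compared here, 10.4 to 63.6, are small or similar beside the added 50. These normexp values therefore do not test the 2-fold differences.

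A probe without annotation lay 1159 bp from the Scgb2b20 probe, at chr7:34150721-34150780 on mm9, in the opposite orientation as the files give it. It was picked out after its values were seen. Its level was -1.17 in TRAMP after TmT, 1.23 in TRAMP after oil, -1.85 in C57BL/6 after TmT and -3.44 in C57BL/6 after oil. The highest and the lowest array were the same as for Scgb2b20, with line differences of 0.68 after TmT and 4.67 after oil. Its sequence is shown because it is a second reading at this locus.
unannotated probe near Scgb2b20: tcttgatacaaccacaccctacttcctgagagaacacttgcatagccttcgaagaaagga

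**Figure D2:**
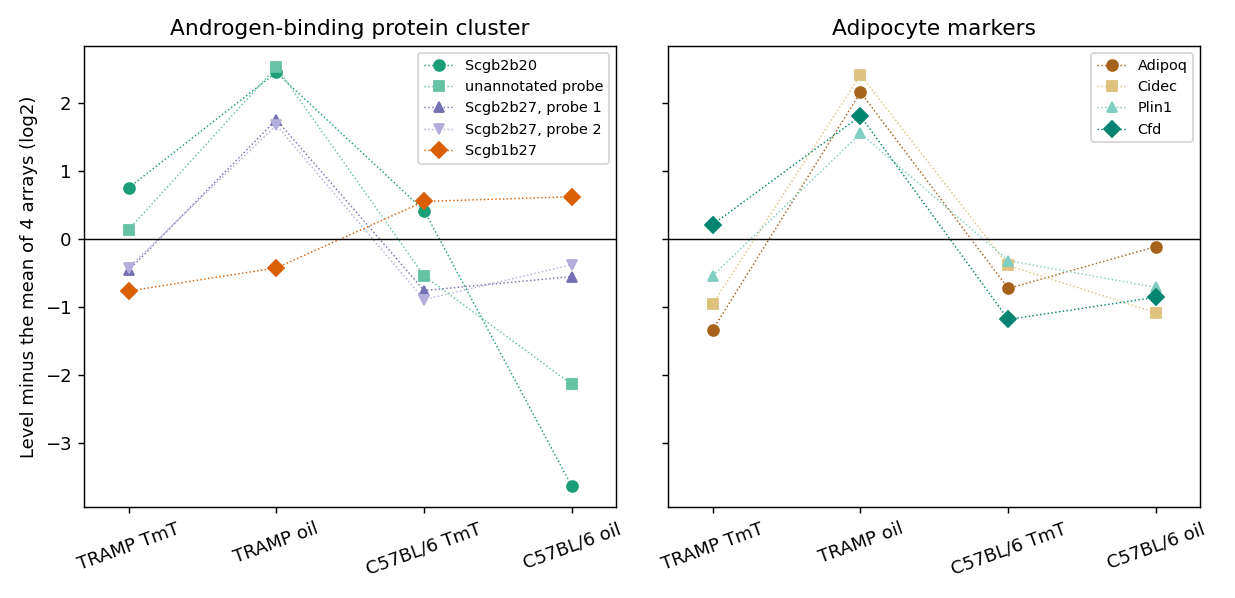
Level of each probe minus its own mean over the 4 arrays (log2), for 5 probes of the androgen-binding protein cluster (left) and 4 adipocyte markers above background on all arrays (right), with dotted lines only joining the points of 1 probe. Scgb2b20, the unannotated probe, both Scgb2b27 probes and the adipocyte markers share the TRAMP oil array as their highest, while Scgb1b27 lies lower on both TRAMP arrays.

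Adipocyte markers moved with the TRAMP oil array as well. All 6 (Adipoq, Cidec, Plin1, Cfd, Retn and Ucp1) were at least 2-fold higher after oil in TRAMP than in C57BL/6 (median 2.86). After TmT, 4 were measured on both arrays, with a median of -0.39. Their summed level was 13.2 in TRAMP after TmT, 57.4 in TRAMP after oil, 7.51 in C57BL/6 after TmT and 8.1 in C57BL/6 after oil, and Retn and Ucp1 were not above background in TRAMP after TmT. Their part in the high Scgb2b27 and Scgb2b20 values of that array was not tested. Between the C57BL/6 arrays, where Scgb2b20 differed by 4.05 ± 0.26, the 5 adipocyte markers measured on both lay within -0.62 and 0.70.

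Salivary and lacrimal gland genes, whose tissues make androgen-binding proteins, were also read. Of 6 such genes on the arrays, Prol1 (Muc10 in the files) was lower in TRAMP by -1.02 ± 0.20 after TmT and -1.80 ± 0.20 after oil, and Dcpp1 at least 2.39-fold lower after TmT and at least 5.61-fold lower after oil. Pip, a secreted protein of several glands, differed by 0.27 ± 0.20 after TmT and -0.64 ± 0.20 after oil. In total 2 of 5 measured genes were at least 2-fold lower after TmT and 1 of 4 after oil, with none at least 2-fold higher. Their summed level was 225 in TRAMP after TmT, 199 in TRAMP after oil, 328 in C57BL/6 after TmT and 482 in C57BL/6 after oil, and their part in the results was not tested.

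Among the remaining lipocalins, Lcn10, known from the epididymis, had levels of -2.23 in TRAMP after TmT, -3.42 in TRAMP after oil, -2.43 in C57BL/6 after TmT and -2.41 in C57BL/6 after oil. The TRAMP oil array alone was low. The lines differed by 0.20 ± 0.25 after TmT and -1.01 ± 0.24 after oil, and by -0.12 after oil with normexp correction. The Lcn10 signals after oil, 13.0 in TRAMP and 30.3 in C57BL/6, lie below the 50 added there, so that value does not test the difference. Of 8 epididymis markers Adam7, Defb20, Rnase10 and Cst11 were not above background on any array, and the secreted protein Crisp1 was low on the same array, with line differences of 0.09 ± 0.20 after TmT and -2.48 ± 0.20 after oil. Crisp1 had the largest difference of the 4 measured markers after oil. Of these 4, 2 (Crisp1 and Pate4) were at least 2-fold lower in TRAMP and 1 was higher, by 0.34. Pate4 (Svs7 in the files) is also on the seminal vesicle list, so the sum that follows is not of epididymis markers alone. The summed level of the 8 was 80.1 in TRAMP after TmT, 40 in TRAMP after oil, 68.4 in C57BL/6 after TmT and 73.3 in C57BL/6 after oil, and the TRAMP oil array was also the lowest for 3 fibroblast markers (41.3 in TRAMP after TmT, 16 in TRAMP after oil, 51.4 in C57BL/6 after TmT and 57.3 in C57BL/6 after oil). Their part in the Lcn10 values was not tested.

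The major urinary proteins, made in quantity by male liver and also by several glands, were mostly lower in TRAMP. Mup4, known from lacrimal and nasal glands, had levels of 2.13 in TRAMP after TmT and 2.73 in TRAMP after oil, against 3.78 in C57BL/6 after TmT and 3.88 in C57BL/6 after oil. The lines differed by -1.65 ± 0.20 after TmT and -1.16 ± 0.20 after oil. Mup1, a major urinary form, had 1.58 in TRAMP after TmT, 3.04 in TRAMP after oil, 2.78 in C57BL/6 after TmT and 3.73 in C57BL/6 after oil, with line differences of -1.20 ± 0.20 after TmT and -0.70 ± 0.20 after oil. The TRAMP oil array lay between the C57BL/6 arrays. With normexp correction the differences after TmT were -0.75 for Mup4 and -0.31 for Mup1 (-1.71 and -1.17 without background-outlier spots). Neither passed in the limma fit (adjusted p = 0.1702 for Mup4 and 0.2925 for Mup1). The 7 prostate luminal markers were also lower in TRAMP in summed level, at 825 in TRAMP after TmT, 444 in TRAMP after oil, 1380 in C57BL/6 after TmT and 1132 in C57BL/6 after oil. Within TRAMP their sum was lower after oil, whereas Mup4 and Mup1 were lower after TmT. The part of these markers in the Mup4 and Mup1 values was not tested.

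Over the whole set the counts after TmT were 0 members at least 2-fold higher in TRAMP and 3 at least 2-fold lower (Scgb1b27, Mup1 and Mup4) of 13 measured on both arrays, against 8.45% higher and 6.09% lower of all 17251 genes so measured. After oil they were 2 higher (Scgb2b20 and Scgb2b27) and 4 lower (Scgb1b27, Scgb2b24, Lcn10 and Mup4) of 15, against 7.74% and 7.84% of 18921 genes. The median member difference was 0.06 after TmT and -0.50 after oil, beside 0.01 and -0.07 over all genes. The counts of lower members stood above the background shares in these few genes, and those of higher members did not stand clearly apart from them. The lower count after oil did not hold under other scalings: it was 2 with median centring and 1 with quantile normalization. The lower count after TmT was 3 with both of these, but 0 with normexp correction and 2 with normexp without background-outlier spots.

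**Figure D3:**
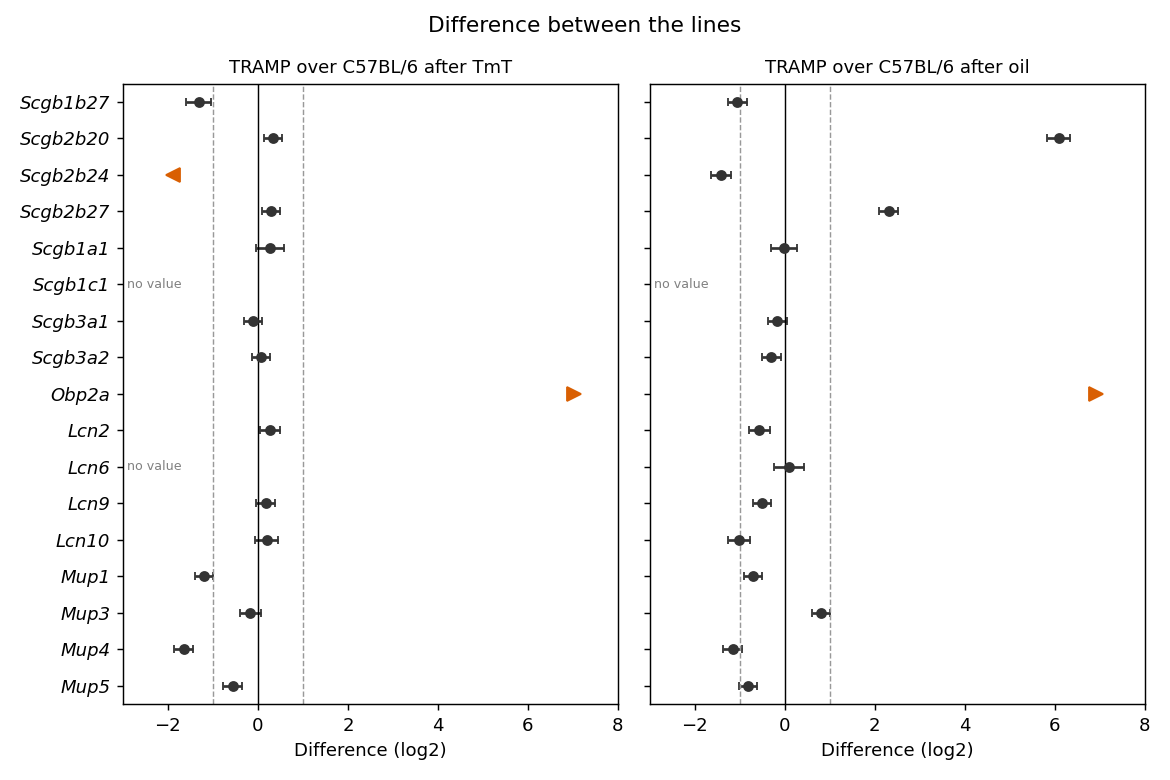
Difference of TRAMP over C57BL/6 (log2) after TmT (left) and after oil (right) for each member above background on at least 1 array. Bars are scanner spot errors with n = 1 array per group, triangles are bounds, dashed lines mark 2-fold, and "no value" means too dim for a difference or a bound; Obp2a has bounds of at least 130-fold and at least 121-fold, and Scgb2b20 is far from 0 after oil only.

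The second question was what TmT did within each line. In the limma fit no member rose or fell with TmT (0 of 16, beside 0 of 19925 genes, lowest adjusted p over all genes 0.7733). At an unadjusted p under 0.05 the count was 1 of 16 members, Mup1, and 1248 of all 19925 genes (6.26%), so the member count was near the share of all genes. In TRAMP 2 members were at least 2-fold higher after TmT (Lcn10 and Lcn2) and 3 at least 2-fold lower (Scgb2b27, Scgb2b20 and Mup1) of 14 measured on both arrays, against 8.66% and 4.86% of 17465 genes. In C57BL/6 1 member was at least 2-fold higher (Scgb2b20) and 0 lower of 15, against 3.12% and 2.63% of 18665 genes. The median member difference was 0.15 in TRAMP and -0.02 in C57BL/6, beside 0.10 and 0.02 over all genes.

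Scgb2b20 had opposite differences in the 2 lines. It was lower after TmT in TRAMP by -1.70 ± 0.20 and higher after TmT in C57BL/6 by 4.05 ± 0.26, 16.6-fold, which ranked 2nd of 18665 genes measured on both C57BL/6 arrays. All 4 arrays enter this contrast, and the low C57BL/6 oil array enters both the line difference after oil and the TmT difference in C57BL/6. The unannotated probe nearby differed by -2.40 in TRAMP and 1.60 in C57BL/6. With normexp background correction restricted to spots without a background outlier mark, the Scgb2b20 differences were -0.83 in TRAMP and 1.80 in C57BL/6.

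Scgb2b27 was lower after TmT in TRAMP by -2.22 ± 0.20 and differed by -0.21 ± 0.20 in C57BL/6. Scgb1b27 differed by -0.34 ± 0.28 in TRAMP and by -0.07 ± 0.21 in C57BL/6. Scgb2b24 was at least 1.71-fold lower after TmT in TRAMP and differed by -0.31 ± 0.21 in C57BL/6. Beside these values, 4 of 4 adipocyte markers measured on both TRAMP arrays were at least 2-fold lower after TmT, with a median of -2.73, and 0 of 5 differed by 2-fold in C57BL/6.

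Lcn2, which binds iron-carrying siderophores and is made by neutrophils and stressed epithelium, had levels of -1.76 in TRAMP after TmT, -2.93 in TRAMP after oil, -2.03 in C57BL/6 after TmT and -2.37 in C57BL/6 after oil. It was higher after TmT by 1.17 ± 0.24 in TRAMP and 0.34 ± 0.23 in C57BL/6, and the TRAMP difference was 0.61 with normexp correction without background-outlier spots. The Lcn2 signals in TRAMP, 21.1 after TmT and 18.2 after oil, also lie below the 50 added there. Of 8 neutrophil markers 5 (S100a8, Ngp, Camp, Elane and Csf3r) were not above background on any array. S100a9 was at least 6.12-fold higher after TmT in TRAMP and lower by -1.71 ± 0.34 in C57BL/6, and Ltf (lactoferrin, also an epithelial product) differed by 1.10 ± 0.21 in TRAMP and -1.13 ± 0.21 in C57BL/6. The summed level of the 8 was 1.2 in TRAMP after TmT, 0.522 in TRAMP after oil, 0.57 in C57BL/6 after TmT and 1.1 in C57BL/6 after oil. Its part in the Lcn2 values was not tested. Lcn10 was higher after TmT by 1.18 ± 0.26 in TRAMP and differed by -0.02 ± 0.24 in C57BL/6. Crisp1 beside it differed by 3.21 ± 0.20 in TRAMP and 0.63 ± 0.20 in C57BL/6, and all 3 fibroblast markers were at least 2-fold higher after TmT in TRAMP. Of the 4 epididymis markers measured, 2 were at least 2-fold higher after TmT in TRAMP and 1 was lower, by -0.63. The 2 were Crisp1 and Pate4, which is also on the seminal vesicle list.

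Obp2a differed by 0.38 ± 0.20 between TmT and oil in TRAMP, and in C57BL/6 neither array was above background. Scgb1c1, a secretoglobin of nasal tissue, was above background in C57BL/6 after TmT only, at -3.83, at least 2.01-fold higher than after oil in C57BL/6. Its level in TRAMP after TmT was close to that, at -3.74, but not well above background on that dimmest array. After oil it was -5.36 in TRAMP and -5.42 in C57BL/6, both not above background. The values therefore do not set the lines apart.

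**Figure D4:**
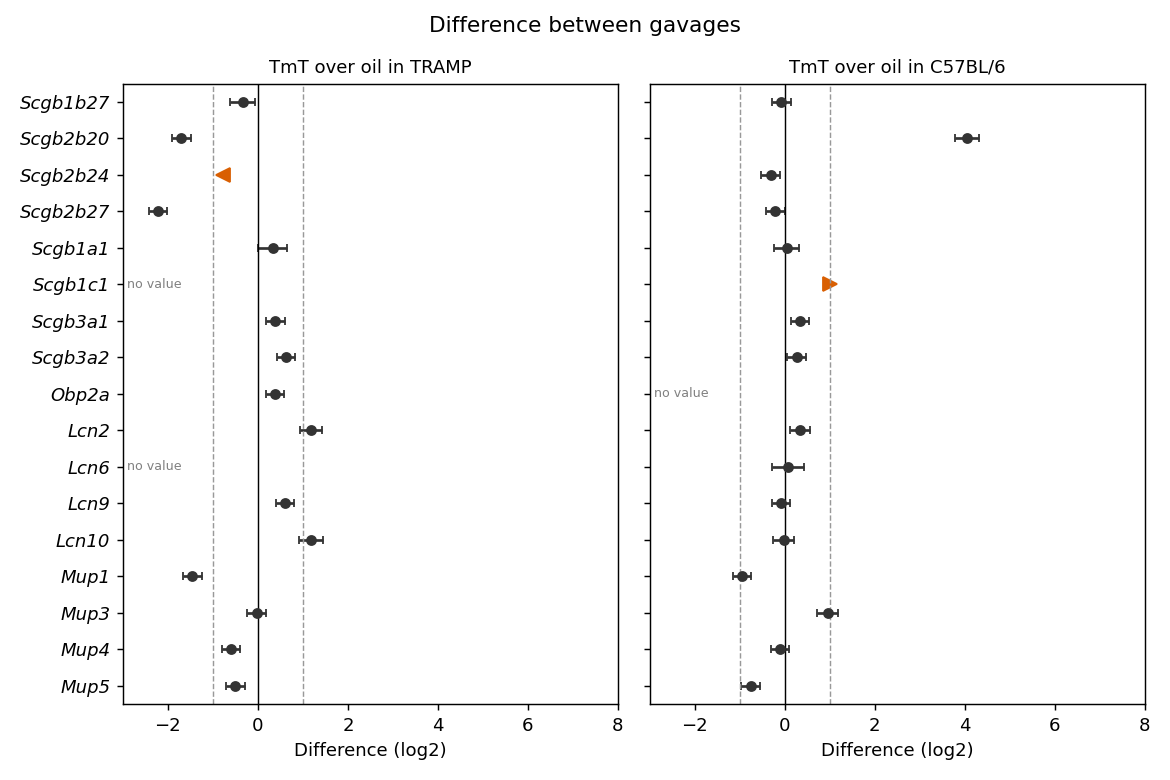
Difference of TmT over oil (log2) in TRAMP (left) and in C57BL/6 (right), drawn as for the lines. Scgb2b20 lies at -1.70 in TRAMP and at 4.05 in C57BL/6, and Mup1 lies below 0 in both.

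Mup1 was lower after TmT in both lines, by -1.45 ± 0.20 in TRAMP and -0.95 ± 0.20 in C57BL/6 (limma fit -1.20 ± 0.34 SE, unadjusted p = 0.0142, adjusted p = 0.7785). Mup4 differed by -0.59 ± 0.20 in TRAMP and -0.10 ± 0.20 in C57BL/6, and Mup5 by -0.50 ± 0.21 and -0.75 ± 0.20. Mup3 differed by -0.02 ± 0.21 in TRAMP and 0.95 ± 0.23 in C57BL/6. The Mup genes form a tight cluster of near-identical copies on chromosome 4, so which copies a probe reads is uncertain. Among all probes on the array, sharing of at least 25 bases at 90% identity with a probe of another gene was found for 1 member probe, that of Mup1, which shares 31 bases with a probe of the predicted gene LOC100039177. Both are printed with the shared bases in capitals, from chr4:60511965-60512188 and chr4:61177721-61177902 on the minus strand of mm9.
Mup1: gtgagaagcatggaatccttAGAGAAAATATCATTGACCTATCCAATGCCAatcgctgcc
LOC100039177: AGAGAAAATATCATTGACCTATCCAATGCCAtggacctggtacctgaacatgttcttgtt

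Probes outside the rule's names but described in the files as major urinary proteins numbered 7, of which 4 were above background on all arrays. The LOC100039177 probe had -0.61 in TRAMP after TmT, 0.63 in TRAMP after oil, 0.09 in C57BL/6 after TmT and 1.15 in C57BL/6 after oil. That of Mup6 had 0.70 in TRAMP after TmT, 1.87 in TRAMP after oil, 1.35 in C57BL/6 after TmT and 2.25 in C57BL/6 after oil. All 4 were lower after TmT in both lines, by -1.56 to -0.78 in TRAMP and -1.53 to -0.74 in C57BL/6. They may read overlapping transcripts and do not count as separate evidence.

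**Figure D5:**
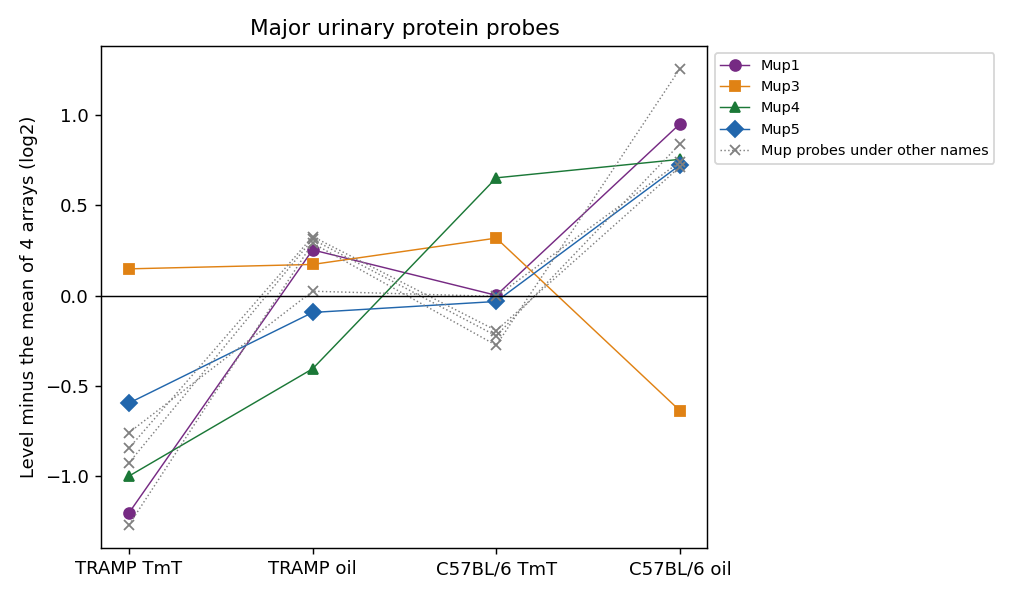
Level of each major urinary protein probe minus its own mean over the 4 arrays (log2), with 4 members in colour and the 4 probes under other names in grey, and lines only joining the points of 1 probe. Mup1 and the grey probes are lower on each TmT array than on the oil array of the same line, whereas Mup3 is lowest in C57BL/6 after oil.

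Members above background on all arrays with every difference under 2-fold were 6: Scgb3a1, Scgb3a2, Scgb1a1, Lcn9, Mup3 and Mup5. Scgb3a2, a secretoglobin of airways, had levels of 1.58 in TRAMP after TmT, 0.96 in TRAMP after oil, 1.52 in C57BL/6 after TmT and 1.25 in C57BL/6 after oil. Scgb3a1, its relative, had 0.44 in TRAMP after TmT, 0.05 in TRAMP after oil, 0.54 in C57BL/6 after TmT and 0.21 in C57BL/6 after oil. Both were a little higher on each TmT array than on the oil array of its line, by 0.26 to 0.62 for Scgb3a2 and 0.34 to 0.39 for Scgb3a1, and neither passed in the limma fit (adjusted p = 0.8029 and 0.8224). Mup5 had -0.52 in TRAMP after TmT, -0.02 in TRAMP after oil, 0.04 in C57BL/6 after TmT and 0.80 in C57BL/6 after oil. Mup3 had -1.87 in TRAMP after TmT, -1.85 in TRAMP after oil, -1.70 in C57BL/6 after TmT and -2.66 in C57BL/6 after oil. Lcn9, an epididymal lipocalin, had -0.60 in TRAMP after TmT, -1.20 in TRAMP after oil, -0.77 in C57BL/6 after TmT and -0.70 in C57BL/6 after oil, and its other probe was not above background on any array. Scgb1a1, the club cell secretoglobin, lay within -3.22 and -2.89 on the 4 arrays, with differences of -0.02 to 0.33. Lcn6 was above background on 3 arrays, between -4.03 and -3.93, and at -3.78, not well above background, in TRAMP after TmT. Of 5 airway club and ciliated cell markers, 4 were above background on all arrays, with 1 at least 2-fold higher in TRAMP after TmT and 0 in the other comparisons.

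The promoters of Scgb2b20 and Scgb2b27 are shown because both genes were highest on the TRAMP oil array. They come from RefSeq (GRCm38.p6, 250 bases before to 50 after the gene start, minus strand, chr7:33366270-33366569 and chr7:34013893-34014192), and 187 of 300 bases were identical in a global alignment (62.3%). Capitals mark TATAAA and AGAACA, a steroid hormone response half-site, each searched on both strands. Both promoters hold 1 TATAAA, and Scgb2b20 holds 1 AGAACA against 0 in Scgb2b27. Of 21 member promoters searched, 9 hold AGAACA and 11 TATAAA, beside 19% and 13.6% of all 32851 promoters. Several of the 21 are related copies, such as those of Scgb2b2 and Scgb2b24 with 84% identical bases. The member counts are therefore not independent and were not tested against the share of all promoters. The full palindrome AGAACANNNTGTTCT, which contains the half-site, was in 0 of the 21 and in 0.00913% of all. These matches describe letters in a window and say nothing of binding.
Scgb2b20 promoter: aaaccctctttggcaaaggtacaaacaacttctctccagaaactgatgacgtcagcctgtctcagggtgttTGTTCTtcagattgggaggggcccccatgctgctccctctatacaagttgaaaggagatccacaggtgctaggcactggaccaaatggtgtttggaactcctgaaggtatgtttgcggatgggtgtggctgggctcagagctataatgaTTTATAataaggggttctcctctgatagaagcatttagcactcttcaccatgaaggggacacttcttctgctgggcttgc
Scgb2b27 promoter: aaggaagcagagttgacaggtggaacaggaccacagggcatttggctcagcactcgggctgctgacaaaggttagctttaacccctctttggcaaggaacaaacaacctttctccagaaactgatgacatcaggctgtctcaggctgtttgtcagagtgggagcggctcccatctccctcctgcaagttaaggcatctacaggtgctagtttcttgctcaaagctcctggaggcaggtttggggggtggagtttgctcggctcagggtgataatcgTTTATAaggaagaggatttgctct

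The rest of the lipocalin fold and its partners were read from lists outside the rule. Of 11 other lipocalin-fold genes, 0 of 6 measured were at least 2-fold higher and 1 lower in TRAMP after TmT, and 2 of 9 higher and 4 lower after oil. Probasin (Pbsn) had 5.06 in TRAMP after TmT and 4.11 in TRAMP after oil, against 7.09 in C57BL/6 after TmT and 7.06 in C57BL/6 after oil. It differed between the lines by -2.04 ± 0.20 after TmT and -2.95 ± 0.20 after oil (limma adjusted p = 0.08708). Fabp4, the fatty acid carrier of fat cells, and Rbp4, the retinol carrier of plasma, stood high on the TRAMP oil array like Scgb2b27, by 2.42 ± 0.20 and 2.08 ± 0.21 over C57BL/6 after oil. Ptgds, a prostaglandin synthase with a lipocalin fold, stood low there, by -2.84 ± 0.28. With TmT in TRAMP, Fabp4 differed by -3.59 ± 0.20, Rbp4 by -2.03 ± 0.22 and Ptgds by 2.92 ± 0.28.

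Of 5 receptors of lipocalins and secretoglobins, those measured on both arrays (3 or 4) had 0 at least 2-fold differences in each of the 4 comparisons. Slc22a17, the receptor named for Lcn2, differed by -0.59 ± 0.21 between the lines after TmT and -0.06 ± 0.21 after oil. Among 10 genes of the androgen response, all measured, 1 was at least 2-fold higher and 5 lower in TRAMP after TmT, and 1 higher and 3 lower after oil. Fkbp5, a chaperone induced by steroid hormones, differed by 1.26 ± 0.21 after TmT and 1.84 ± 0.20 after oil, and Azgp1, a secreted zinc-binding glycoprotein, by -1.08 ± 0.20 after TmT and -1.13 ± 0.20 after oil. With TmT 1 was higher and 2 lower in TRAMP, and 0 passed 2-fold in C57BL/6. Of 14 acute phase genes, which often move with Lcn2 in other tissues, 0 of 8 measured were at least 2-fold higher and 1, haptoglobin (Hp, -1.62 ± 0.21), lower after TmT in TRAMP, and 0 higher and 1 lower of 9 in C57BL/6. In the limma fit 0 genes of these 4 lists rose or fell with line or gavage. At an unadjusted p under 0.05, which 15.1% of all genes reached for line and 6.26% for gavage, the line difference counted 4 of 10 other lipocalin-fold genes, 0 of 5 receptors, 4 of 10 androgen response genes and 1 of 9 acute phase genes, and the TmT difference 4, 0, 0 and 1 of the same.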

How the data were processed

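RNA of mouse prostate was hybridised with 1 colour, Cy3, to Agilent expression arrays, 1 per group and all on 1 slide. The deposited intensity values are the scanner software's processed signals, background-subtracted and detrended within each array by Feature Extraction 10.2.1.3 with mm9 probe positions, per the file headers; no normalization between arrays is recorded there. The deposited value table held the same intensities for 100% of spots, so it is linear and uncentred, with medians of 15.1 for TRAMP after TmT, 28 for TRAMP after oil, 23.4 for C57BL/6 after TmT and 33.2 for C57BL/6 after oil.

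Control spots and outlier-marked spots (131 to 348 of 43379 per array) were left out. After log2, the 75th percentile of each array was subtracted and repeat spots were averaged per probe. A gene's value is its brightest probe over the 4 arrays. RefSeq accessions gave a current symbol for 25 of 28 member probes and 24844 of 41174 probes. The additive fit used limma 3.58.1 in R 4.3.3 and was tested on simulated data. The prior it estimated had an SD of 0.355 with 4.47 degrees of freedom. The number of arrays limits the precision.

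Members are named with a value on every array where they were above background and at least 2-fold different in 1 of the 4 comparisons. Others are given as a group. Members, lists and tests were chosen with earlier results of these data known. Alternatives covered background correction, scaling, the background filter, the choice of probe, outlier spots and the deposited table.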

Additional observations from a re-analysis of the deposited data

Results flagged for a closer look

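Scgb2b20 (Abpd in the files), a beta or gamma subunit of androgen-binding protein, stood out because its TmT difference ran in opposite directions in the 2 lines. The log2 difference of TmT over oil was -1.70 in TRAMP and 4.05 in C57BL/6, from 1 array per group, and the difference between these 2 values was not tested. Its size, -5.75 as TRAMP minus C57BL/6, ranked 5th of 19925 genes, while that of Scgb2b27 was -2.01 and ranked 990th.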

How the results depend on the processing

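No paired analysis was possible because each group had 1 array, so the arrays carry no replicate numbers that could pair them and no replicate could be left out. The number of arrays limits every result, and dim probes add spot error. Of 248 differences of single members recomputed, 120 repeated the main value because the setting could not change them, and 88 of the other 128 moved by less than their spot error. Of the rest 39 moved by more and 1 of at least 2-fold turned sign, all with the 2 normexp settings. Over all settings 26 crossed 2-fold. The cause was not tested for any change that follows, unless the setting itself shows it. With normexp background correction, 1 member was at least 2-fold lower in TRAMP after oil and 0 after TmT. In TRAMP 5 were higher and 5 lower after TmT, and in C57BL/6 6 higher and 3 lower. In the limma fit 0 rose with line, and 8 rose and 4 fell with TmT, beside 14860 calls over all genes. Scgb1b27 (Abpa) turned to 0.0313 between the lines after TmT, and Obp2a had an adjusted p of 0.823. The local background reached 659409 on the TRAMP TmT array and 137411 on the C57BL/6 TmT array, against 39 in TRAMP after oil and 33 in C57BL/6 after oil. Without such background-outlier spots, an alternative chosen after seeing the data, 1 member was lower in TRAMP after oil, 0 were higher after TmT in TRAMP, 3 rose and 2 fell with line, and 2 fell with TmT, beside 1347 and 339 calls over all genes. Its offset of 50 is large beside the 75th percentiles and shrinks differences: Scgb2b20 was then 2.84 between the lines after oil. Quantile normalization left 1 member lower in TRAMP after oil, with the median of all genes at 0.03 in place of -0.07. Median centring left 2 there and gave 2 higher after TmT in C57BL/6. It also moved the share of higher calls among all 2-fold calls to 46% in place of 58.1% between the lines after TmT, and to 52% in place of 64.1% with TmT in TRAMP. With no background filter, which counts dim genes, 4 members were higher in TRAMP after oil and 1 after TmT, 6 higher after TmT in TRAMP, and 3 higher and 1 lower after TmT in C57BL/6. The genotype call of Obp2a was absent (0 members rose) with genes above background on all 4 arrays, where it was not tested and 278 genes were called in place of 27, with the mean over probes (adjusted p 0.06983) and with outlier-marked spots kept (0.06652). Its adjusted p ranged from 4.078e-34 to 0.823 over the alternatives. The deposited value table gave the same values, since it holds the same signals.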
